A study of Homo sapiens with 23 samples.

Results

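The genes KRT5, KRT14, KRT15, KRT17, KRT7, KRT8, KRT18, KRT19, TP63 and CD44, 10 in all, were followed in prostate cancer cells with raised or lowered ONECUT2 (OC2). They were chosen by name, as genes used to tell basal from luminal prostate epithelium. All 10 were present in each of the 3 count tables, which hold 60683, 58219 and 54648 genes. Samples came from LNCaP and LAPC4, human prostate adenocarcinoma lines that respond to androgen. In LAPC4, 3 libraries labelled OC2 OE (overexpression) were set against 3 vector libraries, all grown with 10% serum and R1881, a synthetic androgen, at 1 nM. In LNCaP, grown with 10% serum, 2 OC2 OE libraries were set against 2 control libraries, and 2 libraries labelled shOC2 (hairpin knockdown) against 2 labelled shCon. Other LNCaP cells received 7 days of enzalutamide, an androgen receptor antagonist, at 10 µM with an OC2 inhibitor at 10 µM (the combination), enzalutamide alone at 10 µM, or vehicle, with 3 libraries each. The names of the overexpression and control libraries follow another pattern than those of the hairpin libraries, and the labels do not say whether libraries of a group came from separate cultures, so the p-values measure only the spread between these libraries.

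The prostate gland is lined by luminal secretory cells that rest on a layer of basal cells. Keratins assemble as pairs of a type I and a type II protein: KRT5 pairs with KRT14 in basal cells and KRT8 with KRT18 in luminal cells, while KRT15, KRT17 and KRT19 are type I and KRT7 is type II. TP63 encodes p63, the transcription factor that maintains basal epithelium, and CD44 is a cell-surface receptor for hyaluronan that basal prostate cells carry. Prostate adenocarcinoma typically keeps the luminal keratins and loses p63 and the basal layer. OC2 is a homeodomain transcription factor.

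ONECUT2 itself checked the labels of the engineered cells. It stood at 969, 811 and 913 CPM (read counts scaled to a common library total) in LAPC4 OC2 OE cells, against 13.2, 17.0 and 16.3 CPM in vector cells. It stood at 334 and 306 CPM in LNCaP OC2 OE cells, against 24.6 and 30.6 CPM in control cells. In shOC2 cells it was 12.1 CPM in both libraries, against 20.4 and 21.2 CPM in shCon cells, a fall by 0.77 on the log2 scale (SE 0.09, edgeR adjusted p = 4.84e-05). In shCon cells it was itself lower than in control cells, by a log2 fold change of -0.41 (SE 0.11, edgeR adjusted p = 0.0127). Library totals ran from 20964025 to 30465978 counts. Of 22 luminal prostate genes other than these keratins, 20 or 21 reached 1 CPM in every group, which is what the labels imply. Among 22 basal epithelial genes that are not keratins, 10 (LNCaP control) to 18 (LAPC4 OC2 OE) reached it. Reaching 1 CPM therefore does not by itself part luminal from basal cells. Of 15 stromal, endothelial and blood markers, 3 to 5 reached 1 CPM per group, and the summed level of the list ran from 7.63 to 64.7 CPM.

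Certain libraries stood apart. LAPC4 vector replicate 3 was the lowest vector library in CPM for 8 of the 10 genes, with the widest gaps at KRT5 and KRT17. Without it the LAPC4 log2 fold changes were 1.85 for KRT5, 3.31 for KRT14, 0.89 for KRT15, 2.27 for KRT17, 1.05 for TP63, 8.93 for CD44, 0.23 for KRT7, 0.41 for KRT8, 0.14 for KRT18 and 1.07 for KRT19. KRT5 and KRT17 were read 11 and 9 times in LNCaP control replicate 2 and never in control replicate 1. The enzalutamide columns are whole counts while the vehicle and combination columns beside them are estimated counts, so for every contrast with enzalutamide alone the drug and the counting step cannot be told apart. Fewer cells of a type and less RNA per cell cannot be told apart in any of these bulk samples.

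Both lines had a luminal keratin profile, and LAPC4 also carried the basal keratins KRT5 and KRT15. In LNCaP control cells KRT18 averaged 617 ± 9.35 CPM and KRT8 383 ± 2.49 CPM (SD, n = 2), while KRT19 stood at 13.1 ± 0.73 CPM and each of the other 7 genes below 0.5 CPM in either library. In LAPC4 vector cells KRT8 averaged 817 ± 84.2 CPM, KRT18 454 ± 11.3 CPM, KRT19 392 ± 34.2 CPM, KRT15 77.2 ± 12.1 CPM and KRT5 63.5 ± 41.3 CPM (SD, n = 3). Among the genes followed by name, KRT17 averaged only 1.97 ± 1.37 CPM there, KRT14 1.02 ± 0.37 CPM and CD44 0.83 ± 0.14 CPM. That scarcity did not extend to basal genes at large. The list of 22 basal epithelial genes that are not keratins summed to 919 to 940 CPM in LAPC4 vector cells. The tables of the lines were counted and scaled separately, so these levels are side by side and were not tested. TP63 was hardly present even where KRT5 was high: its highest value in any of the 23 libraries was 19 counts.

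**Figure D1:**
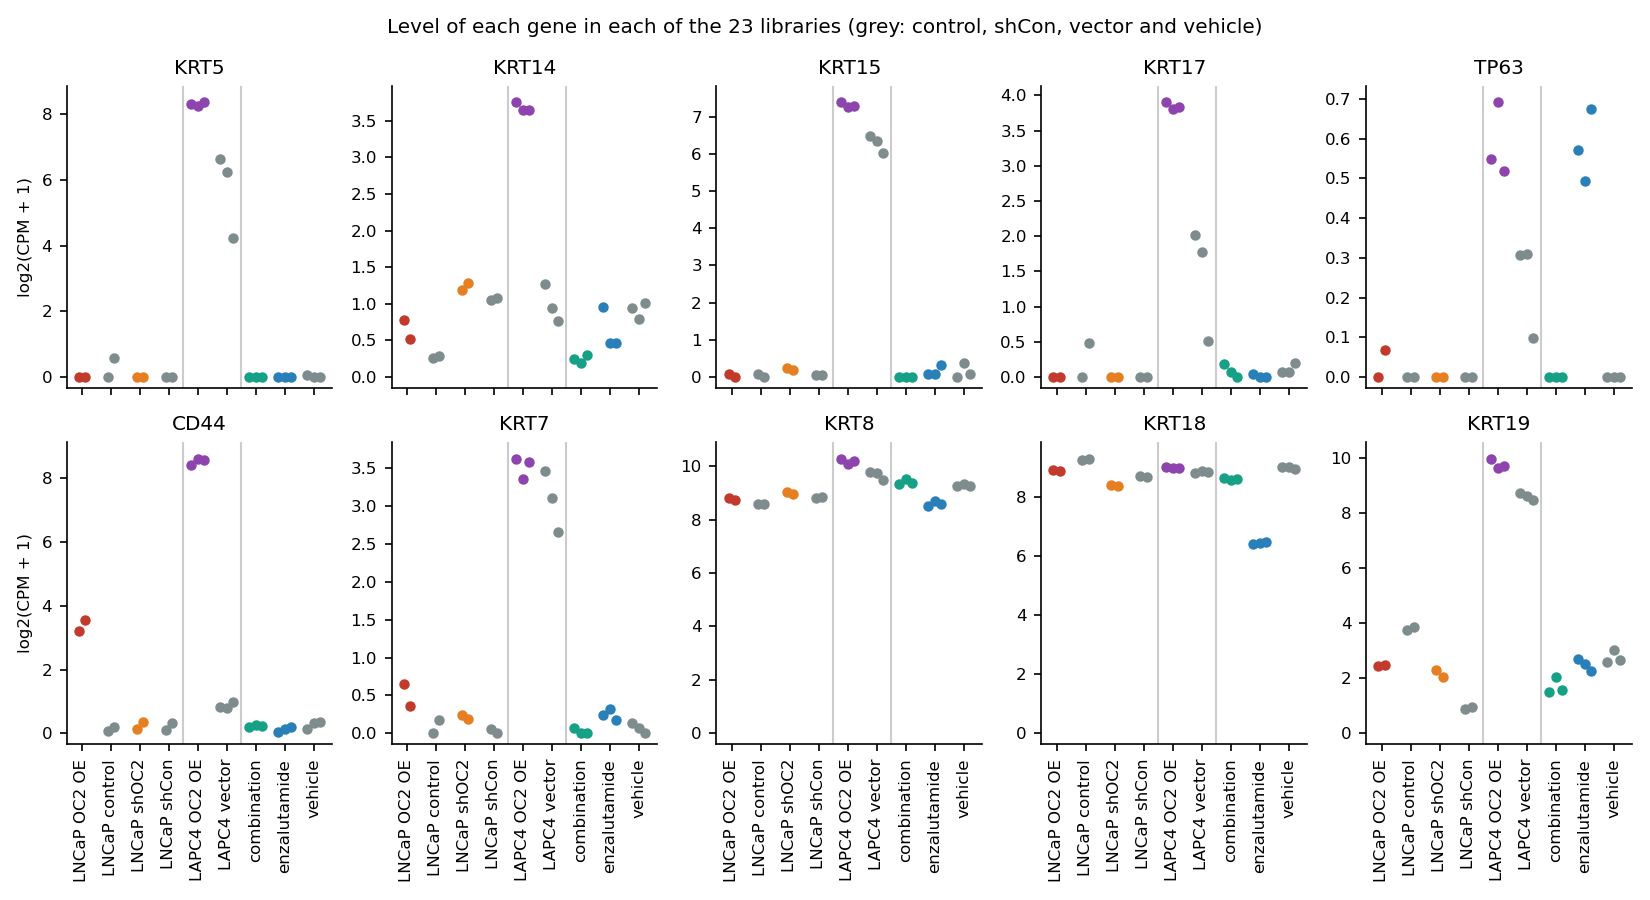
Level of each gene in each of the 23 libraries as log2(CPM + 1), one panel per gene with its own vertical scale, groups along the horizontal axis and one point per library. Grey points are control, shCon, vector and vehicle libraries, and vertical lines part the 3 tables. KRT5, KRT15 and KRT17 are near 0 in every LNCaP group, and CD44 is high in the OC2 OE libraries of both lines.

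The order of the groups by mean CPM was led by LAPC4 OC2 OE for every gene but KRT18. It overlapped the next group for KRT7 (LAPC4 vector) and for TP63 (enzalutamide alone, 0.496 CPM beside 0.504 CPM). For KRT18 the order ran from LNCaP control (617 CPM) through vehicle (507 CPM) and LAPC4 OC2 OE (507 CPM) to enzalutamide alone (85.3 ± 1.71 CPM), with vehicle and LAPC4 OC2 OE overlapping. For KRT8, LAPC4 vector overlapped the combination, the combination overlapped vehicle, and enzalutamide alone overlapped LNCaP control. For CD44 the groups after LAPC4 OC2 OE (373 CPM), LNCaP OC2 OE (9.43 CPM) and LAPC4 vector (0.83 CPM) all overlapped their neighbours at or below 0.21 CPM.

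With OC2 overexpressed, most of these genes rose in LAPC4, while few were read often enough to test in LNCaP. In LAPC4 all 10 passed the filter on low counts and 8 rose past the threshold of 0.05 on the edgeR adjusted p, with none falling, where 32.1% of the 16904 genes tested rose and 61.1% changed. Their median log2 fold change was 1.29, beside 0.00306 for all genes tested. In LNCaP OC2 OE cells 4 of the 10 passed the filter, of which CD44 rose and KRT18 and KRT19 fell, where 60.8% of 17046 genes changed. In shOC2 cells 4 passed it, of which KRT8 and KRT19 rose and KRT18 fell, where 54.1% of 16585 genes changed. In the combination arm 4 were tested against vehicle, of which KRT14, KRT18 and KRT19 fell, where 46.8% of 17438 genes changed and 23.6% fell. With enzalutamide alone 5 were tested against vehicle, of which KRT8 and KRT18 fell and TP63 rose, where 70.3% of genes changed, 34.7% higher and 35.6% lower. The drug arms share their vehicle libraries. For the gene lists below, the shares of all genes that rose and fell were 32.1% and 29% in LAPC4 OC2 OE, 31.6% and 29.3% in LNCaP OC2 OE, 27.3% and 26.8% in shOC2 and 23.2% and 23.6% in the combination arm. A gene silent or scarce in one group passes the filter only through the other, so every list count and median is a description. TP63 in LAPC4 and with enzalutamide alone, and CD44 in LNCaP, passed it this way and could be counted only as rising. KRT14 passed it only through libraries outside the combination arm and could be counted there only as falling. Outside LAPC4 so few of the genes were tested that their share says little beside these backgrounds.

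**Figure D2:**
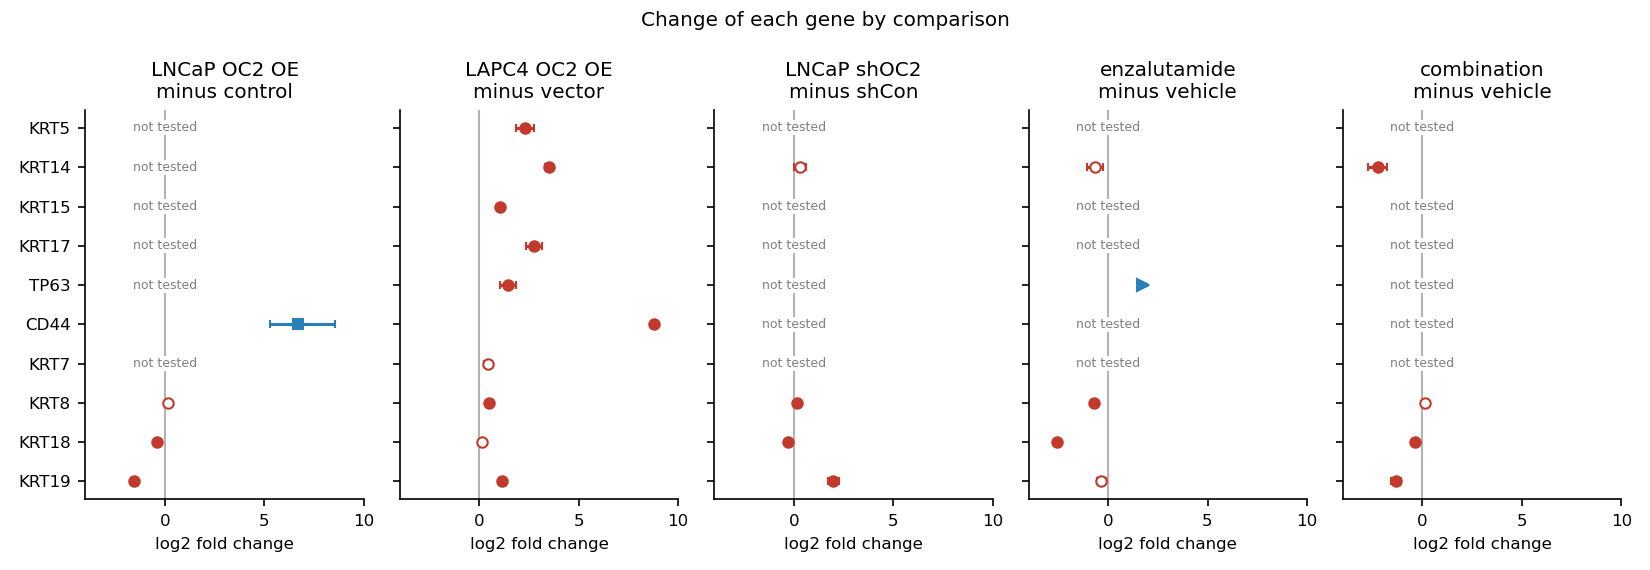
Log2 fold change of each gene (rows) in 5 comparisons (panels). Red circles are edgeR estimates with their SE, filled where the adjusted p passed 0.05 and open where it did not; the blue square is a ratio of summed counts with its exact 95% interval, the blue arrowhead is a lower bound, and genes under the filter are marked as not tested. In LAPC4 all 10 points lie at or right of 0, whereas the LNCaP panels are mostly empty for the basal genes.

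CD44 showed the widest change of the 10 genes and rose in both lines. In LAPC4 it had 10441, 11460 and 11462 counts in OC2 OE cells, against 23, 21 and 28 counts in vector cells. The groups were separate by a wide margin, at 373 ± 24.8 CPM in OC2 OE and 0.83 ± 0.14 CPM in vector cells (SD, n = 3 each). The rise was 447-fold (log2 fold change 8.80, SE 0.12, edgeR adjusted p = 4.43e-11). In LNCaP it had 173 and 223 counts in OC2 OE cells, against 1 and 3 counts in control cells. That ratio of summed counts was 102, with an exact 95% interval of 39.4 to 375 that covers counting error only, and the edgeR log2 fold change was 6.56 (SE 0.36, adjusted p = 3.69e-07). CD44 passed the filter there only through the OC2 OE libraries, so it could be counted only as rising. Set against shCon instead, with 2 and 6 counts, the log2 fold change was 5.77 (SE 0.33, edgeR adjusted p = 2.485e-07). No other LNCaP library exceeded 6 CD44 counts: there were 2 and 6 counts in shOC2 cells, 3, 4 and 4 in the combination arm, 1, 3 and 5 with enzalutamide alone and 2, 5 and 6 in vehicle, and the gene did not pass the filter in those comparisons. CD44 (chr11:35138870-35232402, plus strand, GENCODE 29 on hg38) shares 84 exon bases with CD44-AS1 on the other strand. Counts per gene do not tell its standard and variant isoforms apart.

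CD44, KRT5, TP63 and KRT8 all rose in LAPC4 OC2 OE cells and are the 4 of the 10 genes with a promoter entry. The 250 bases before the starts of the first 3, which hold a match to a motif searched for, are shown 5′ to 3′ on the strand of the gene, from RefSeq (GRCh38.p14). Capitals mark matches on either strand to ATCAAT, the core that OC2 and related ONECUT factors bind, or to ATAAAA, which resembles the core promoter box found upstream of many genes.
CD44, chr11:35138921-35139170, plus strand: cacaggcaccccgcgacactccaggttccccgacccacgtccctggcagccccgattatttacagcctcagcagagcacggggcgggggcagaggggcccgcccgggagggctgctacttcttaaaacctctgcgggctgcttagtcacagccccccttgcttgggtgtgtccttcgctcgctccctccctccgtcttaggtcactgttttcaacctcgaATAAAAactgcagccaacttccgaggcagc
KRT5, chr12:52520395-52520644, minus strand: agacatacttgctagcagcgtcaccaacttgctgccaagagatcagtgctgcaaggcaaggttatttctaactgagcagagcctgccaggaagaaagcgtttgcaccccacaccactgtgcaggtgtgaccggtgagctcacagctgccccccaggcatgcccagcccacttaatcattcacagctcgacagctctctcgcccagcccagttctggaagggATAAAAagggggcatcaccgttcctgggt
TP63, chr3:189631139-189631388, plus strand: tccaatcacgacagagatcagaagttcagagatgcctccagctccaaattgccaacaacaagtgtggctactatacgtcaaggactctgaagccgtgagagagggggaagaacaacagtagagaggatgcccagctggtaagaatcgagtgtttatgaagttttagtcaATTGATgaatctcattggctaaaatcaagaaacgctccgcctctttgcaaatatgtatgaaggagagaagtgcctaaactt
CD44 and KRT5 each held 1 ATAAAA, beginning at position -30 in CD44 and -29 in KRT5 counted from the start. TP63 held 1 ATCAAT, read on the minus strand from position -81. Of 35116 promoters of the same length, 14.8% held ATAAAA and 5.58% ATCAAT on either strand. The KRT8 window held neither. Of the other motifs searched on both strands, GGGCGG was found 2 times in CD44 and is present in 42.6% of promoters. The motifs TATAAA, present in 10.7%, and TGANTCA, present in 6.57%, were found in none of the 4 windows. The GENCODE 29 models of CD44, KRT5 and KRT8 begin further upstream than these RefSeq starts, so the windows show a single start each. The KRT8 window, chr12:52926470-52926719, lies inside the GENCODE 29 model, chr12:52897187-52949954 on the minus strand. The TP63 window lies at the 5′ end of the gene, and starts further inside the gene were not examined.

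The partners of CD44 were followed as a list of 21 genes for hyaluronan synthesis, its breakdown and the proteins that bind CD44. In LAPC4 OC2 OE cells 9 of 16 tested rose and 6 fell, with a median log2 fold change of 0.30, where 32.1% of all genes rose and 29% fell. HAS2, SPP1 and MMP14 below passed the filter only through the OC2 OE libraries and could be counted only as rising. SPP1, osteopontin, a secreted CD44 ligand, averaged 19.6 ± 3.12 CPM in OC2 OE cells and had 1 count in all vector libraries together. MSN, moesin, which ties CD44 to actin, averaged 266 ± 12.3 CPM in OC2 OE cells and 0.93 ± 0.41 CPM in vector cells (log2 fold change 8.15, SE 0.17, edgeR adjusted p = 2.49e-10). MMP14, a membrane protease that can cleave CD44, averaged 117 ± 5.28 CPM in OC2 OE cells and 0.38 ± 0.14 CPM in vector cells. HAS2, a hyaluronan synthase, had 85 counts in OC2 OE cells and none in vector cells. In LNCaP OC2 OE cells 5 of 13 tested rose and 2 fell. There CEMIP, which binds and degrades hyaluronan, averaged 7.65 ± 0.64 CPM in OC2 OE cells and 0.82 ± 0.21 CPM in control cells, and EZR, ezrin, averaged 111 ± 5.30 CPM in OC2 OE and 63.2 ± 4.13 CPM in control cells. ESRP1 and ESRP2, which regulate the splicing of CD44, did not pass the test in LNCaP, with log2 fold changes of -0.12 and 0.08. Against shCon both passed, at 0.50 for ESRP1 and -0.48 for ESRP2 (edgeR adjusted p of 2.23e-05 and 2.238e-05). In shOC2 cells 3 of 12 tested rose and 3 fell, near the 27.3% and 26.8% of all genes, EZR falling by 0.74 on the log2 scale.

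TP63 was low everywhere, and its few reads were found in LAPC4 and in the enzalutamide columns. LAPC4 OC2 OE cells had 14, 18 and 13 counts, against 7, 7 and 2 counts in vector cells. The groups did not overlap, with a log2 fold change of 1.43 (SE 0.41, edgeR adjusted p = 0.0129). TP63 passed the filter only through the OC2 OE libraries, so it could be counted only as rising. The call was lost without OC2 OE replicate 2 (adjusted p = 0.0581) and with DESeq2 (adjusted p = 0.0545). In LNCaP 1 count was found in OC2 OE replicate 2, and none in replicate 1 or in any control, shOC2, shCon, vehicle or combination library. The enzalutamide columns held 16, 13 and 19 counts, at least 3.41-fold higher than vehicle when 3 counts per library, the number a count of 0 allows, are set for vehicle (edgeR adjusted p = 0.000847). TP63 passed the filter there only through the enzalutamide columns. TP63 (chr3:189631416-189897279, plus strand) shares no exon bases with another gene.

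Genes of the p63 family and its epithelial partner factors mostly fell in LAPC4. Of 15 tested among 16, 10 fell and 1 rose in OC2 OE cells, with a median log2 fold change of -0.66, where 29% of all genes fell. The rise was TP73, a paralogue of TP63, at 8.05 ± 0.38 CPM in OC2 OE cells and 1.26 ± 0.13 CPM in vector cells (log2 fold change 2.66, SE 0.14, edgeR adjusted p = 2.28e-07). TP73 shares 633 exon bases with TP73-AS1 on the other strand. GRHL3, a factor of epidermal barrier formation, fell to 1.96 ± 0.21 CPM in OC2 OE cells, against 6.94 ± 2.28 CPM in vector cells, and OVOL2, which keeps cells epithelial, fell by 1.30 on the log2 scale. With OC2 overexpressed in LNCaP, 3 of 15 rose and 6 fell. TFAP2A, a factor of ectoderm and epidermis, rose to 70.1 ± 1.17 CPM in OC2 OE cells, against 5.85 ± 0.52 CPM in control cells, and in shOC2 cells it fell to 3.94 ± 0.29 CPM, against 17.9 ± 0.61 CPM in shCon cells. KLF5, a factor shared by basal and luminal cells, rose in both LNCaP experiments, by 1.10 in OC2 OE and by 2.92 in shOC2 cells on the log2 scale.

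The basal keratins KRT5, KRT14, KRT15 and KRT17 all rose in LAPC4 OC2 OE cells. KRT5, which gives basal cells their type II keratin, had 9502, 8940 and 9779 counts in OC2 OE cells, against 2910, 2162 and 510 counts in vector cells. The OC2 OE libraries were alike and the vector libraries were not, replicate 3 being the lowest. The log2 fold change was 2.30 (SE 0.45, edgeR adjusted p = 0.00159), and 1.85 (SE 0.08) without vector replicate 3. KRT14, its type I partner, had 377, 338 and 344 counts in OC2 OE cells, against 42, 27 and 20 counts in vector cells. Here the groups stood far apart and the rise was the steepest of the keratins followed by name (log2 fold change 3.52, SE 0.20, edgeR adjusted p = 3.63e-07). KRT17, a keratin induced in stressed and regenerating epithelium, had 422, 381 and 398 counts in OC2 OE cells, against 90, 71 and 12 counts in vector cells (log2 fold change 2.75, SE 0.40, edgeR adjusted p = 0.000247). Without vector replicate 3 its log2 fold change was 2.27 (SE 0.13). KRT15, a keratin of basal progenitor cells, had 5006, 4467 and 4640 counts in OC2 OE cells, against 2578, 2351 and 1815 counts in vector cells. It doubled, with a log2 fold change of 1.02 (SE 0.11, edgeR adjusted p = 3.13e-05). KRT5 is at chr12:52514575-52520687, and KRT14, KRT15 and KRT17 lie within chr17:41513743-41624842, all on the minus strand.

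In LNCaP the same keratins were at or near 0, apart from KRT14. KRT5 and KRT17 had no read in either OC2 OE, shOC2 or shCon library, and KRT15 had at most 8 counts in any LNCaP library. KRT14 had 15 and 9 counts in OC2 OE cells, against 4 and 5 counts in control cells, and did not pass the filter there. Against shCon, with 26 and 27 counts, it was lower in OC2 OE cells (log2 fold change -0.95, SE 0.37, edgeR adjusted p = 0.0463). It passed the filter there only through the shCon libraries and could be counted only as lower. By counts its direction turned with the reference, but the difference from control was not tested. It had 28 and 32 counts in shOC2 cells, against 26 and 27 counts in shCon cells, with a log2 fold change of 0.32 (SE 0.29, edgeR adjusted p = 0.374). In the combination arm it had 4, 3 and 5 counts, against 19, 15 and 21 counts in vehicle. That was a fall by 2.26 on the log2 scale (SE 0.49, edgeR adjusted p = 0.00386), with no overlap between the arms. The enzalutamide columns held 31, 12 and 12 KRT14 counts, 1 column lying above vehicle on the raw counts and the others below, and the difference from vehicle did not pass the test (log2 fold change -0.65, SE 0.40, edgeR adjusted p = 0.168). Without the high column it did (log2 fold change -1.24, SE 0.36, edgeR adjusted p = 0.00869).

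Other keratins moved with these in LAPC4. Of 22 other keratin genes, 18 were tested in LAPC4 and 18 rose, with a median log2 fold change of 2.44. A keratin that is silent or scarce in vector cells can pass the filter only through the OC2 OE libraries, so the count is a description. KRT6A, a keratin of activated keratinocytes, averaged 105 ± 5.60 CPM in OC2 OE cells and 4.24 ± 1.42 CPM in vector cells (log2 fold change 4.61, SE 0.19, edgeR adjusted p = 2.82e-08). KRT1, a keratin of differentiating epidermis, averaged 8.47 ± 0.63 CPM in OC2 OE cells and 0.31 ± 0.13 CPM in vector cells. KRT12, a keratin of corneal epithelium, had 597 counts in OC2 OE cells and none in vector cells. Among LNCaP OC2 OE cells only 3 were tested and 2 fell, KRT80 and KRT10, by 1.25 and 0.85 on the log2 scale. Neither fall held against shCon, where the log2 fold changes were 0.36 for KRT80 and -0.17 for KRT10 (edgeR adjusted p of 0.470 and 0.116). In shOC2 cells KRT20, a keratin of gut and urothelium, rose to 11.4 ± 0.95 CPM, against 1.39 ± 0.26 CPM in shCon cells. In the combination arm 5 of 7 tested fell and none rose. There KRT6C averaged 1.36 ± 1.15 CPM in the combination arm and 21.3 ± 1.40 CPM in vehicle, and KRT6B 0.11 ± 0.07 CPM in the combination arm and 3.32 ± 0.98 CPM in vehicle. KRT6A, KRT6B and KRT6C are near-identical copies, so the split of reads among them is uncertain.

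Basal genes other than keratins mostly rose in LAPC4 and split in LNCaP. In LAPC4 OC2 OE cells 12 of 18 tested rose and 5 fell, with a median log2 fold change of 1.60, where 32.1% of all genes rose. BNC1, COL17A1 and CAV1 below, silent or scarce in vector cells, passed the filter only through the OC2 OE libraries and could be counted only as rising. LAMB3, a chain of the laminin that anchors basal cells, averaged 313 ± 20.8 CPM in OC2 OE cells and 6.23 ± 1.91 CPM in vector cells (log2 fold change 5.64, SE 0.19, edgeR adjusted p = 7.18e-09). COL17A1, a hemidesmosome collagen, averaged 3.46 ± 0.50 CPM in OC2 OE cells and 0.13 ± 0.08 CPM in vector cells. CAV1, caveolin, averaged 46.1 ± 2.28 CPM in OC2 OE cells and 0.16 ± 0.10 CPM in vector cells, and BNC1, a zinc finger factor of basal keratinocytes, had 2105 counts in OC2 OE cells and none in vector cells. NGFR, a neurotrophin receptor of basal cells, did not pass the test, at 192 ± 24.3 CPM in OC2 OE and 201 ± 5.74 CPM in vector cells. LNCaP split evenly: in OC2 OE cells 6 of 13 rose and 6 fell. NGFR there had 2935 counts in OC2 OE cells and 2 in control cells, SFN, an epithelial 14-3-3 protein, rose by 6.95 on the log2 scale, and ITGB4, the integrin of hemidesmosomes, fell to 0.29 ± 0.07 CPM in OC2 OE cells, against 3.88 ± 0.61 CPM in control cells.

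KRT8 and KRT18, the luminal pair, did not move together. KRT8 stood at 1238, 1080.4 and 1162 CPM in LAPC4 OC2 OE cells, against 881, 848 and 722 CPM in vector cells (log2 fold change 0.50, SE 0.10, edgeR adjusted p = 0.00149). KRT18 stood at 509.8, 505 and 505 CPM in LAPC4 OC2 OE cells, against 442, 465 and 454 CPM in vector cells. The KRT18 libraries did not overlap, but the difference did not pass the test (log2 fold change 0.15, SE 0.06, edgeR adjusted p = 0.0525). It did pass without vector replicate 3 (adjusted p = 0.0401) and with DESeq2 (adjusted p = 0.037). KRT8 in LNCaP OC2 OE cells stood at 446 and 425 CPM, against 381 and 385 CPM in control cells (log2 fold change 0.16, SE 0.07, edgeR adjusted p = 0.0585). KRT18 stood at 473 and 463 CPM in OC2 OE cells, against 610.1 and 623 CPM in control cells, a fall by 0.42 on the log2 scale (SE 0.07, edgeR adjusted p = 0.00037). In shOC2 cells KRT8 stood at 516 and 499.8 CPM, against 452 and 454 CPM in shCon cells (log2 fold change 0.18, SE 0.05, edgeR adjusted p = 0.0113), a call lost without shOC2 replicate 1 (adjusted p = 0.0827) and with library totals as the scaling (adjusted p = 0.0552). KRT18 stood at 332 CPM in both shOC2 libraries, against 414 and 407 CPM in shCon cells, a fall by 0.29 on the log2 scale (SE 0.05, edgeR adjusted p = 0.000576). The OC2 OE direction turned with the reference: against shCon KRT18 was higher in LNCaP OC2 OE cells, by 0.18 on the log2 scale (SE 0.05, edgeR adjusted p = 0.00883), and shCon itself was lower than control (log2 fold change -0.59, SE 0.07, edgeR adjusted p = 9.10e-05).

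In the drug arms KRT18 fell in both, and KRT8 fell with enzalutamide alone. KRT18 had 397, 381 and 384 CPM in the combination arm, 83.5, 85.4 and 86.9 CPM with enzalutamide alone and 516, 509 and 495 CPM in vehicle. The 3 arms did not overlap. The fall from vehicle was 0.39 on the log2 scale for the combination (SE 0.06, edgeR adjusted p = 0.000697) and 2.58 for enzalutamide alone (SE 0.07, edgeR adjusted p = 3.28e-10). KRT8 had 635.5, 728 and 655 CPM in the combination arm, 366, 409 and 378 CPM with enzalutamide alone and 605, 642 and 607 CPM in vehicle. The combination overlapped vehicle (log2 fold change 0.12, SE 0.08, edgeR adjusted p = 0.237), and the enzalutamide columns lay below it, a fall by 0.69 (SE 0.08, edgeR adjusted p = 2.67e-05). KRT18 and KRT8 are neighbours, at chr12:52948871-52952901 (plus strand) and chr12:52897187-52949954 (minus strand), and share 525 exon bases. Reads there cannot be told apart without strand, and whether the counting used strand is not stated. Processed pseudogenes held 1.71% to 2.30% of the KRT18 and pseudogene counts in the enzalutamide columns and 0.55% to 0.62% in vehicle. Adding them to the gene left the log2 fold change at -2.55.

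**Figure D3:**
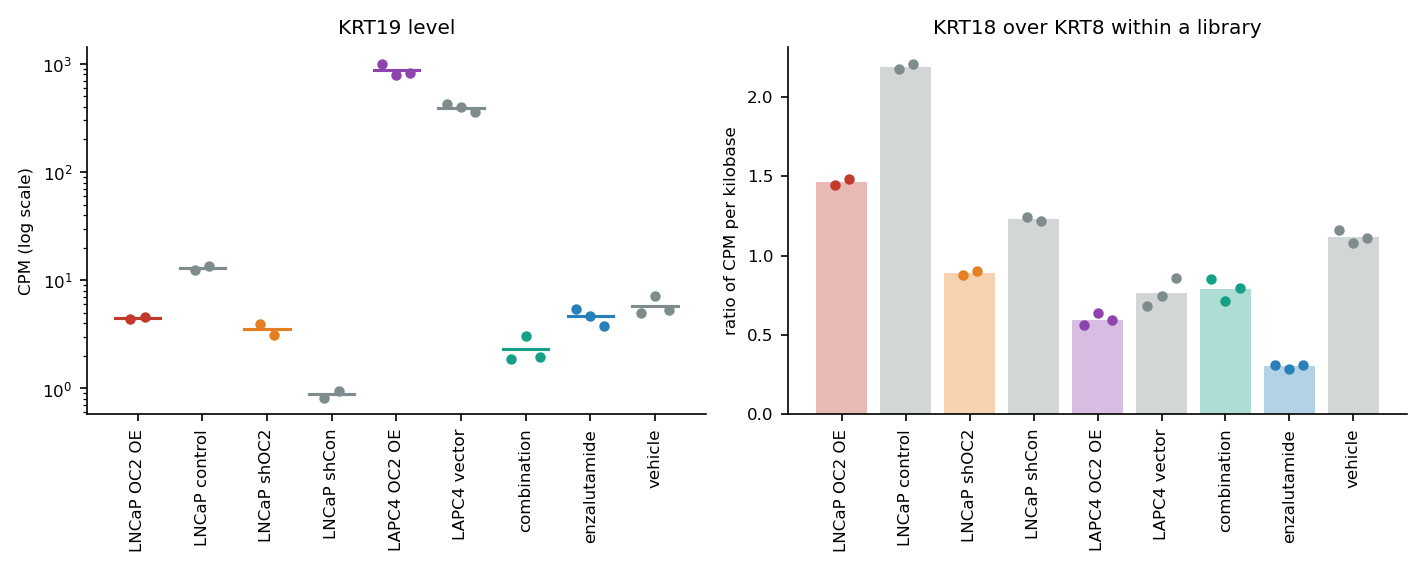
KRT19 level in CPM on a log scale (left, a point per library and a line at the group mean) and the ratio of KRT18 to KRT8 in CPM per kilobase of the principal transcript (right, a point per library and a bar for the group mean), by group. KRT19 is lowest in shCon, and the ratio is lower in each OC2 OE, shOC2 and drug group than in the group it is set against.

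The ratio of KRT18 to KRT8 within a library needs no scaling between libraries. It was added after the values had been seen, and was taken on levels per kilobase of each principal transcript, a length that cancels when libraries are compared. It was 1.45 to 1.48 in LNCaP OC2 OE and 2.18 to 2.20 in control cells, 0.877 to 0.905 in shOC2 and 1.22 to 1.25 in shCon cells, and 0.560 to 0.636 in LAPC4 OC2 OE and 0.683 to 0.857 in vector cells. In the drug arms it was 0.712 to 0.850 in the combination, 0.284 to 0.313 with enzalutamide alone and 1.08 to 1.16 in vehicle. In all 5 comparisons with the group's own reference the ratio was lower and the libraries did not overlap. The exact two-sided permutation p was 0.1 with 3 libraries a group and 0.333 with 2, the smallest these designs allow. The exception came with another reference: against shCon, the LNCaP OC2 OE ratio was higher.

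KRT19, a type I keratin of many simple epithelia that lacks the tail domain of other keratins, was abundant in LAPC4 and scarce in LNCaP. It had 1003, 789 and 831 CPM in LAPC4 OC2 OE cells, against 424, 397 and 356 CPM in vector cells. Every OC2 OE library lay above every vector library, with a log2 fold change of 1.15 (SE 0.11, edgeR adjusted p = 1.22e-05). In LNCaP OC2 OE cells it had 93 and 96 counts, against 259 and 306 counts in control cells, a fall by 1.56 on the log2 scale (SE 0.14, edgeR adjusted p = 7.57e-06). In shOC2 cells it had 85 and 70 counts, against 20 and 23 counts in shCon cells, a log2 fold change of 1.99 (SE 0.26, edgeR adjusted p = 0.000144). The shCon and control libraries themselves lay further apart than either pair: KRT19 was 14.6-fold lower in shCon than in control cells (log2 fold change -3.87, SE 0.18, edgeR adjusted p = 4.28e-07). Set against shCon, the LNCaP OC2 OE cells had more KRT19, with a log2 fold change of 2.32 (SE 0.23, edgeR adjusted p = 1.193e-05), so the direction in LNCaP turns with the reference. Between shCon and control 56.4% of 16790 genes changed.

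In the drug arms KRT19 had 41, 67 and 43 counts in the combination, 180, 149 and 121 counts with enzalutamide alone and 103, 147 and 111 counts in vehicle. The combination was lower than vehicle by 1.35 on the log2 scale (SE 0.25, edgeR adjusted p = 0.00156) with no overlap. The enzalutamide columns overlapped vehicle in CPM, and the difference did not pass the test (log2 fold change -0.33, SE 0.23, edgeR adjusted p = 0.22). KRT19 is at chr17:41523617-41528308, minus strand.

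KRT7, a type II keratin of simple and ductal epithelium, did not pass the test in LAPC4. It had 344, 271 and 331 counts in OC2 OE cells, against 298, 224 and 152 counts in vector cells, and the groups overlapped in CPM (log2 fold change 0.45, SE 0.20, edgeR adjusted p = 0.0852). Without vector replicate 1 the rise passed (log2 fold change 0.69, edgeR adjusted p = 0.00533), and without vector replicate 3 it did not (log2 fold change 0.23, edgeR adjusted p = 0.0875). In LNCaP it had 12 and 6 counts in OC2 OE cells, against 0 and 3 counts in control cells, a ratio of 6.16 with an exact 95% interval of 1.80 to 32.7, and it was under the filter. It had 4 and 3 counts in shOC2 cells, against 1 and 0 counts in shCon cells, and at most 8 counts in any drug library. KRT7 (chr12:52232520-52252186, plus strand) shares 282 exon bases with KRT7-AS on the other strand.

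Taking all 30 keratins together, the make-up of the keratin RNA differed between the lines and changed in LAPC4. On levels per kilobase of the principal transcript, KRT8 and KRT18 made up 44.6% to 46.7% of the sum in LAPC4 OC2 OE cells, against 60.9% to 66.2% in vector cells. KRT19 made up 31.6% to 35.4% in OC2 OE cells, against 25.9% to 26.9% in vector cells, and the basal KRT5, KRT14, KRT15 and KRT17 together 8.41% to 9.31%, against 2.09% to 5.08%. In every LNCaP group KRT8 and KRT18 held 91.9% to 98.0% of the sum. The combination had the highest share of the pair, 97.5% to 98.0%, against 95.1% to 95.6% in vehicle.

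**Figure D4:**
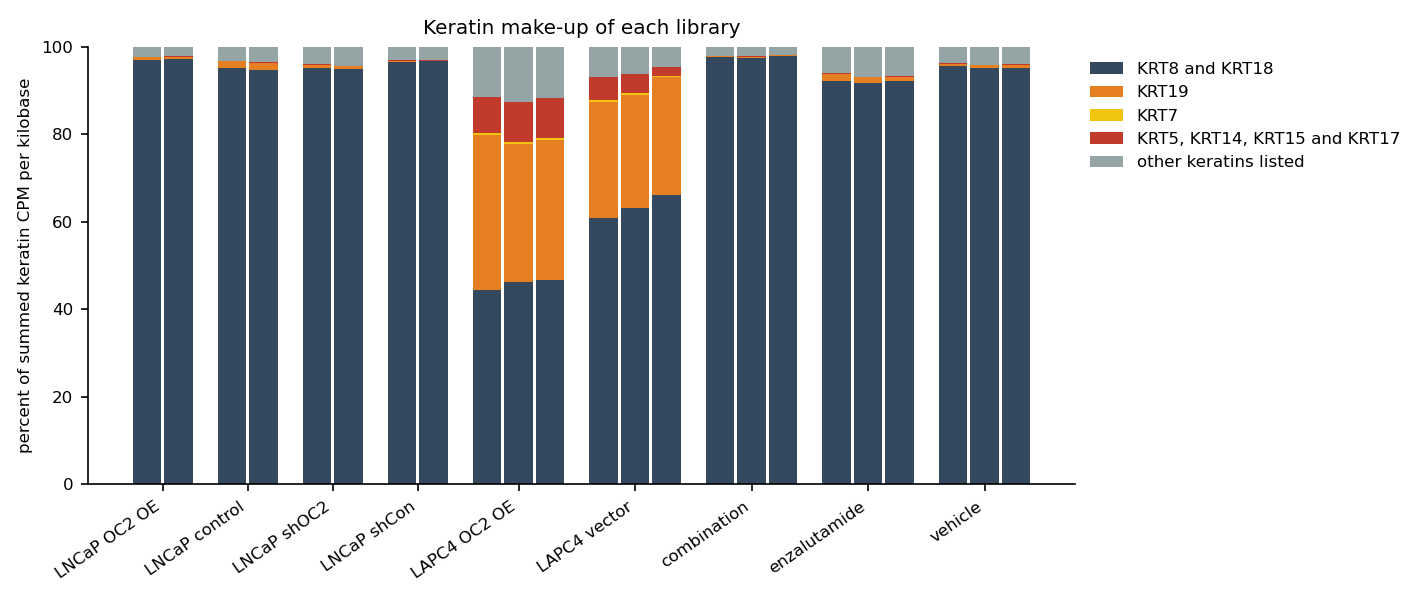
Share of each keratin class in the summed level of 30 keratins (CPM per kilobase of the principal transcript), 1 bar per library, grouped. KRT8 and KRT18 fill over 90% of every LNCaP bar, while LAPC4 bars also hold KRT19 and the basal keratins, both larger in OC2 OE than in vector cells.

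Luminal genes that are not keratins mostly fell in LAPC4 OC2 OE cells, where 20 of 22 fell and 1 rose, with a median log2 fold change of -0.78, where 29% of all genes fell. KLK3, prostate-specific antigen, averaged 30.0 ± 12.7 CPM in OC2 OE cells and 186 ± 18.7 CPM in vector cells. LNCaP OC2 OE cells had 13 of 22 lower and 5 higher, where 29.3% of all genes fell and 31.6% rose. In shOC2 cells 13 of 21 rose and 5 fell, where 27.3% and 26.8% of all genes did, and ACP3, prostatic acid phosphatase, rose by 2.29 on the log2 scale. In the combination arm 10 of 21 fell and 7 rose, KLK2 averaging 6.77 ± 1.25 CPM in the combination and 189 ± 15.9 CPM in vehicle. With enzalutamide alone 12 of 21 fell and 8 rose.

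More of the proteins that keratins attach to fell than rose in LAPC4. Of the desmosome and linker genes, 7 of 12 tested fell and 2 rose in LAPC4 OC2 OE cells, where 29% of all genes fell and 32.1% rose. JUP, plakoglobin, averaged 522 ± 39.5 CPM in OC2 OE cells and 785 ± 52.1 CPM in vector cells, and EVPL, envoplakin, fell by 1.15 on the log2 scale, while PPL, periplakin, rose by 0.60. In LNCaP OC2 OE cells 5 of 14 rose and 6 fell, with PPL falling by 2.96. In shOC2 cells DSC2, desmocollin, rose to 286 ± 8.33 CPM, against 78.3 ± 9.19 CPM in shCon cells. PKP1, plakophilin of stratified epithelium, had no read in the combination arm, 1 count with enzalutamide alone and 124 counts in vehicle.

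Intermediate filaments other than keratins mostly rose where OC2 was overexpressed. In LNCaP OC2 OE cells 9 of 9 tested rose, with a median log2 fold change of 2.06. VIM, vimentin, averaged 90.8 ± 1.29 CPM in OC2 OE cells and 8.29 ± 1.02 CPM in control cells, and in shOC2 cells it fell to 3.68 ± 0.20 CPM, against 27.0 ± 3.62 CPM in shCon cells. NES, nestin, rose by 4.97 and NEFH, a neurofilament, by 7.14 on the log2 scale in OC2 OE cells. In LAPC4 4 of 6 rose and 2 fell, and VIM averaged 831 ± 65.0 CPM in OC2 OE cells and 1.43 ± 0.47 CPM in vector cells. Stromal, endothelial and blood markers moved too: 4 of 7 tested rose in LAPC4, their summed level being 22.9 to 25.2 CPM in OC2 OE cells and 7.63 to 11.3 CPM in vector cells, with HBB at 0 in both. Of these markers, 2 of 6 rose in LNCaP OC2 OE cells and 1 fell, at a summed level of 31.6 to 34.6 CPM in OC2 OE and 33.1 to 37.4 CPM in control cells, with CDH5 and CD3E at 0 in both. Their part in the changes of CD44 and VIM was not tested.

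**Figure D5:**
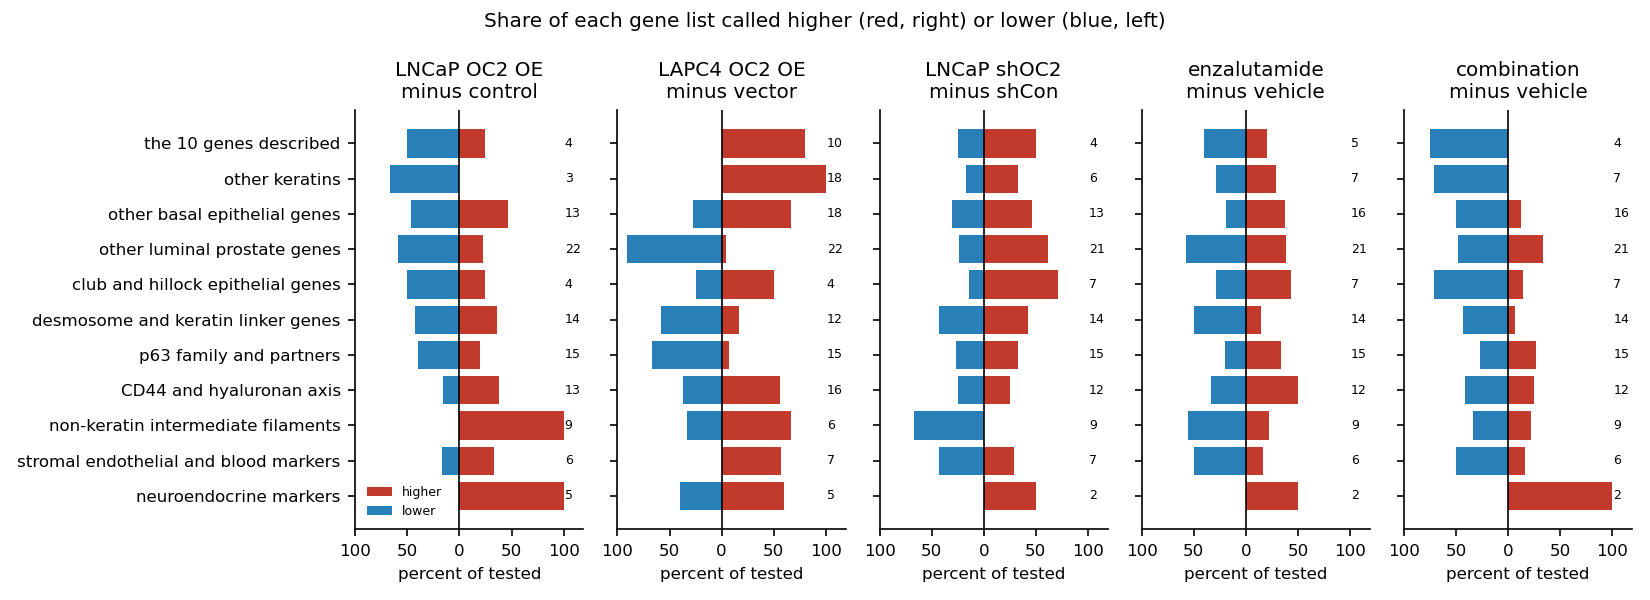
Percent of the tested genes of each list that were called higher (red, to the right) or lower (blue, to the left) by edgeR at an adjusted p of 0.05, in 5 comparisons; the number at the right of each row is the count of genes tested. In LAPC4 the bars of other keratins point right alone, those of basal genes are longer to the right, and those of luminal genes and p63 partners are longer to the left.

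The combination and enzalutamide arms were also set against each other, sharing the fit with vehicle. All 5 genes tested passed the threshold, where 61.9% of 17438 genes did, 31.4% higher and 30.4% lower. TP63 passed the filter only through the enzalutamide columns and could be counted only as lower. KRT14 passed it only through libraries outside the combination arm, so the count of 5 is a description. KRT8 and KRT18 were higher in the combination, by 0.81 (SE 0.08) and 2.19 (SE 0.07) on the log2 scale, and KRT14 and KRT19 were lower, by -1.61 (SE 0.49) and -1.01 (SE 0.25), with edgeR adjusted p of 1.20e-05, 1.09e-09, 0.0163 and 0.00464 in that order of genes. TP63 was at least 3.64-fold lower. The KRT14 call was lost without the highest enzalutamide column (adjusted p = 0.0584) and without combination replicate 2 (adjusted p = 0.0596). This contrast carries the difference in counting between the columns.

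Whether the lines responded differently to OC2 was tested as an interaction, the LAPC4 change minus the LNCaP change. It passed for 5 of the 10 genes, all in the direction of a higher LAPC4 response, where 25.4% of 19633 genes passed in that direction, 24.1% in the other and 49.5% in either. KRT19 differed by 2.71 (SE 0.19, edgeR adjusted p = 7.81e-08), rising in LAPC4 and falling in LNCaP against its control libraries. Against shCon, KRT19 was higher in LNCaP OC2 OE cells by 2.32, more than the 1.15 in LAPC4, so this difference rests on the choice of LNCaP reference, and the interaction was not refitted with shCon. KRT18 differed by 0.57 (SE 0.09, edgeR adjusted p = 0.00014), and KRT14 by 2.11 (SE 0.67, edgeR adjusted p = 0.0186). Against shCon, KRT18 was higher in LNCaP OC2 OE cells by 0.18, beside 0.15 in LAPC4, so its difference also rests on that choice. KRT8 differed by 0.33 (SE 0.13, edgeR adjusted p = 0.0482) and KRT17 by 8.23 (SE 3.09, edgeR adjusted p = 0.0427). The KRT8 call was lost without any one LNCaP library, without LAPC4 OC2 OE replicate 1 or 3 or without vector replicate 2 (edgeR adjusted p of 0.0611 to 0.145), and with other scalings. The KRT14 call was lost without either control library or without LNCaP OC2 OE replicate 2 (edgeR adjusted p of 0.0520 to 0.117). The KRT17 value rests on the 9 reads of LNCaP control replicate 2, without which the adjusted p was 0.9999, and its call was also lost without either LNCaP OC2 OE library or any one LAPC4 OC2 OE library. For CD44 the difference of 2.23 (SE 0.89) did not pass (edgeR adjusted p = 0.0518), and passed in 4 of the 10 fits that left out a library, with DESeq2 (adjusted p = 0.0118) and with the replicate block (adjusted p = 0.039).

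Genes with the most similar pattern were sought over the 20 libraries outside the enzalutamide columns, on log2(CPM + 1) after subtracting the mean of each table. The correlations share libraries and depth and are descriptions. Those of the basal keratins, TP63 and CD44 are led by the LAPC4 groups, and those of KRT18 and KRT19 by the LNCaP libraries. KRT5 and KRT17 were each other's closest gene (Pearson r = 0.987), followed by ACTBL2 (0.979) for KRT5 and KRT4 (0.986) for KRT17. KRT14 was closest to PLEKHG2 (0.985) and LAMB3 (0.981), TP63 to DKK1 (0.960), KRT15 to CNN2 (0.959) and CD44 to HOXD9 (0.998). KRT8 was closest to HELZ2 (0.955) and KRT18 to NUP58 (0.978), whereas KRT8 with KRT18 gave -0.379 although the proteins pair. That value spans the control and shCon libraries, which differ in both genes. On the log2 scale, shCon minus control was 0.24 for KRT8 and -0.59 for KRT18. KRT19 was closest to ARPC1B (0.954) and KRT7 to MZF1 (0.910).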

How the data were processed

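RNA sequencing libraries, 23 in 9 groups, were grouped by the sample labels. Per the submitters' processing notes, FastQC 0.9.0, Bowtie2 and hg38 were used; no source used here names the counter or annotation. The authors deposited whole-number counts for LAPC4 and for the enzalutamide columns, and estimated counts, rounded here, for the other LNCaP groups and for the vehicle and combination columns. Enzalutamide columns carry no replicate number. Current symbols were found for 99.5%, 98.7% and 62.9% of the identifiers in the LNCaP, LAPC4 and drug tables.

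Counts were tested with edgeR 4.0.16 in R 4.3.3 (TMM, filterByExpr, glmQLFit and glmQLFTest), with Benjamini-Hochberg adjustment over all genes tested. Each engineered pair was fitted alone and the 3 drug arms together. Standard errors come from the F statistic. CPM use TMM-scaled totals over each table. Bounds use a floor of 3 counts per library, and intervals are exact 95% Clopper-Pearson; both cover counting error only. Coordinates and overlaps are from GENCODE 29. The procedure was tested on simulated data.

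The 10 genes, the lists and the tests were chosen with earlier results of these data known. List genes named are, per comparison, among the 4 called genes with the largest change and the 2 uncalled with the highest level. DESeq2 1.42.0, other scalings, no filter, omitted libraries, a replicate block, other references and added pseudogene counts were tried as alternatives.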

Additional observations from a re-analysis of the deposited data

Results flagged for a closer look

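For 5 of the 10 genes, a share like the 49.5% of all genes tested, the response to OC2 overexpression differed between the lines by the interaction test, as LAPC4 change minus LNCaP change on the log2 scale. The values were 2.71 for KRT19, 2.11 for KRT14, 0.57 for KRT18, 0.33 for KRT8 and 8.23 for KRT17. KRT19 is the gene whose own changes, 1.15 in LAPC4 and -1.56 in LNCaP, both passed edgeR's test and lie in opposite directions. Against shCon in place of control the LNCaP change of KRT19 was 2.32, in the direction of LAPC4. For KRT18 it was 0.18, beside 0.15 in LAPC4. KRT17 and KRT14 have few LNCaP reads: KRT17 has 0 in both OC2 OE libraries and 9 in 1 of the 2 control libraries. No group of 4 to 10 libraries exists for a check of single outlying libraries.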

How the results depend on the processing

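In the LNCaP OC2 OE comparison, using shCon as the reference reversed KRT8 (-0.070), KRT18 (0.18), KRT19 (2.32), KRT80 (0.36), LAMB3 (-1.41), ESRP1 (0.50) and ESRP2 (-0.48). Fitting the 8 LNCaP libraries together called 5 of the 10 genes in place of 3. KRT19 with enzalutamide alone was 0.012 with library totals. The interaction called 3 of the 10 genes with library totals and 2 to 8 when a library was left out; KRT15 then ran from -1.57 to 3.61 and TP63 from -2.03 to 1.43. Leaving out a library called 5076 to 7863 genes in shOC2 in place of 8969, and put NGFR in LAPC4 between -0.17 and 0.0069. The labels do not say whether equal numbers pair libraries, and so few libraries a group cannot settle it. Deviations of same-numbered libraries correlated at 0.087 in LNCaP OC2 OE, -0.049 in shOC2, -0.104 to -0.024 in LAPC4 and 0.025 to 0.115 in the combination. With the replicate block 4, 9, 3, 3 and 6 of the 10 genes were called in LNCaP OC2 OE, LAPC4, shOC2, the combination and the interaction, KRT8 gaining a call in LNCaP OC2 OE (edgeR adjusted p = 0.0213) and KRT7 in LAPC4 (0.0454). The share of all genes called is not given beside the counts of the 10 genes in these alternative fits. Those counts therefore do not set the 10 genes apart from other genes. No paired analysis was possible for enzalutamide alone because its columns carry no number. The cause was not tested. Depth limits TP63, KRT7 and the basal keratins in LNCaP, where single reads decide presence.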

Other observations

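Club and hillock genes, which mark secretory and transitional cells of the prostate ducts, were mixed in LNCaP, where 1 of 4 tested rose in OC2 OE cells and 2 fell. MMP7, a secreted protease, averaged 64.9 ± 0.43 CPM in OC2 OE cells and 0.27 ± 0.11 CPM in control cells (log2 fold change 7.81, SE 0.17, edgeR adjusted p = 1.55e-09), and was also higher in shOC2 than in shCon cells, by 3.78 on the log2 scale. Against control, MMP7 passed the filter only through the OC2 OE libraries and could be counted only as rising. LCN2 and PSCA fell in OC2 OE cells, by 4.52 and 1.71. Against shCon the fall of LCN2 held (log2 fold change -7.21, edgeR adjusted p = 1.24e-07). That of PSCA did not (log2 fold change -0.21, edgeR adjusted p = 0.388). With either reference LCN2 passed the filter only through the reference libraries and could be counted only as falling. In the combination arm 5 of 7 tested genes of this list fell and 1 rose. With enzalutamide alone 3 of 7 rose and 2 fell, PIGR, the carrier of secreted antibodies, averaging 66.1 ± 17.5 CPM in the enzalutamide columns and 1.43 ± 0.72 CPM in vehicle. In LAPC4 KRT4, a hillock keratin, averaged 15.3 ± 1.13 CPM in OC2 OE cells and 2.49 ± 1.46 CPM in vector cells.

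Of 10 neuroendocrine markers, 5 passed the filter in LNCaP OC2 OE cells and those 5 were called higher; a marker silent in control cells passes only through the OC2 OE libraries, so the count is a description. CHGB, chromogranin B, had 513 counts in OC2 OE cells and none in control cells. In LAPC4 OC2 OE cells 3 of 5 rose and 2 fell.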
